A study of Mus musculus with 46 samples.

Results

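The interval from day 1 to day 3 of a mouse reprogramming time course is described here in both factor combinations, as the change they share. The members are 8 RNA-seq samples of 46 in the series, namely the 4 samples of day 3 and the 4 of day 1 in the gene-level expression table, which were identified by their labels. Mouse embryonic fibroblasts (MEF) bearing the OG2 reporter, a green fluorescent protein gene under Oct4 control, were infected with retroviruses for Oct4 (gene symbol Pou5f1) and Nanog. In the combination labelled Nanog+Oct4 (NanogWT) Nanog was native. In the combination labelled NanogN70+Oct4 (NanogBiD) Nanog was fused to a short stretch of SS18 that binds BRG1, the ATPase of the chromatin remodelling complex known as BAF. Day 0 was set after the rounds of infection, and at day 1 and day 3 all 8 cultures were in the same reprogramming medium, changed daily, before the later switch to a medium for pluripotent cells. Each combination had 2 samples at each day. The labels do not say whether replicates came from separate cultures, so that p-values measure only the spread between these samples, which may be technical. No source used here states that infected cells were sorted from uninfected ones, and in such bulk samples fewer cells of a type and less RNA per cell cannot be told apart. Day cannot be told apart from the date of harvest or library preparation, for which no label is given.

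Fibroblasts hold their identity through mesenchymal transcription factors, a secreted matrix rich in collagens and a contractile actin apparatus. When pluripotency factors are forced on them, these somatic programs are usually shut down before the endogenous pluripotency network comes on. Cells also carry an interferon response, in which interferon at the cell surface or foreign nucleic acid inside the cell leads, through transcription factors such as Stat2, Irf9 and Irf7, to transcription of antiviral genes and of the MHC class I antigen presentation machinery.

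Expression is given in FPKM, fragments scaled by transcript length and by the mapped total of the sample, and differences are in log2(FPKM + 1) as day 3 minus day 1. The summed FPKM of the 8 samples lay between 390004 and 451885, their relative depth between 0.943 and 1.11 of the median, and replicates of a group correlated at 0.954 to 0.983 across genes. The absolute number of reads is unknown, so no counting interval is given. Genes at 1 FPKM or more numbered 12728 to 12888 at day 1 and 13075 to 13257 at day 3. The 13 mitochondrial protein-coding genes took 8.75 to 13.7% of the summed FPKM at day 1 and 12.6 to 20.8% at day 3, and the part of this share in the results was not tested. When the nuclear genes were rescaled to a common total, 816 genes were called higher and 233 lower, against 519 and 207 without rescaling. Rescaling all genes, mitochondrial ones included, gave 710 and 292. Both used a total of 1000000, above the summed FPKM of every sample, so that the added 1 weighed less. These counts therefore do not isolate the mitochondrial share. The labels held in the vector genes. Ss18, whose fragment is part of the fusion, was at 148 and 92.4 FPKM at day 1 and 136 and 117 at day 3 in NanogBiD, above NanogWT with 40.9 and 35.9 at day 1 and 35.4 and 35.6 at day 3. Nanog ranged over 1299 to 1544 FPKM at day 1 and 1479.8 to 1626 at day 3, and Pou5f1 over 5037 to 8147 and 4571 to 7714, all far above the MEF samples, in which neither passed 0.273 FPKM. Neither passed the test between the days (log2 difference 0.18 ± 0.14 SE for Nanog and 0.10 ± 0.25 for Pou5f1, limma adjusted p = 0.469 and 0.839), and FPKM do not separate vector from endogenous transcripts. The defining fibroblast markers Thy1, Pdgfra, Pdgfrb, Vim, Col1a1, Prrx1 and Twist1 were detected in all 8 samples, but not all at the MEF level. Pdgfrb lay at 2.62 to 7.53 FPKM, against 70.5 to 74.2 in MEF and 3.21 in the mouse embryonic stem (mES) cell sample. Col1a1 was at 416 to 565 FPKM at day 1, against 3344 to 3700 in MEF. Vim, in contrast, was above its MEF level of 1895 to 2624 FPKM in all 8 samples. Of the defining pluripotency markers, Esrrb, Zfp42 and Dppa5a stayed at or below 0.292 FPKM and Sox2 and Sall4 at or below 1.56.

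Between day 1 and day 3, in the fit over both combinations, expression rose for 22 of 27 interferon-stimulated genes and 8 of 12 genes of MHC class I antigen presentation. It rose also for the chemokine gene Ccl8, by 4.52 on the log2 scale, and the secreted protease inhibitor gene Serpina3n, whose mean was 12.9-fold higher. It fell for 7 of 11 contractile genes, with Tagln 23.9-fold lower, and for 4 of 14 collagens. Of 14067 genes tested, 519 (3.69%) were called higher at day 3 and 207 (1.47%) lower. Called means a Benjamini-Hochberg adjusted p under 0.05 over all genes in a limma fit with combination as a block, and a difference of at least 2-fold. Without the fold limit, 1250 genes passed higher and 920 lower, and the median difference over all genes tested was -0.01. A mean of at least 10 FPKM over the 8 samples was held by 160 of the genes called higher (30.8%), by 102 of those called lower (49.3%) and by 44.1% of all genes tested.

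The change was seen in both combinations. All 519 genes called higher and all 207 called lower moved in the same direction in both, where 66.6% of all genes tested did. In 502 of the 519 (96.7%) both samples of day 3 lay above both samples of day 1 within each combination, against 14.1% of all genes, and in 199 of the 207 (96.1%) they lay below, against 12% of all genes. Within both combinations 259 of the 519 (49.9%) were called higher, against 1.84% of all genes. Likewise 89 of the 207 (43%) were called lower within both, against 0.633%. These counts are a description, since the fit used the same samples. Taken alone, NanogBiD gave 506 genes called higher (3.6%) and 257 lower (1.83%), and NanogWT gave 503 higher (3.58%) and 171 lower (1.22%). With 2 samples a group these counts rested on single samples. Those of NanogBiD fell to 231 higher and 100 lower without its day 1 replicate 2 and to 137 lower without its day 1 replicate 1. Those of NanogWT fell to 286 and 72 without day 1 replicate 1, to 192 and 48 without day 1 replicate 2, to 191 and 39 without day 3 replicate 1, and to 275 and 95 without day 3 replicate 2. The shared counts stayed between 457 and 550 higher and between 175 and 241 lower when any 1 of the 8 samples was left out.

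**Figure D1:**
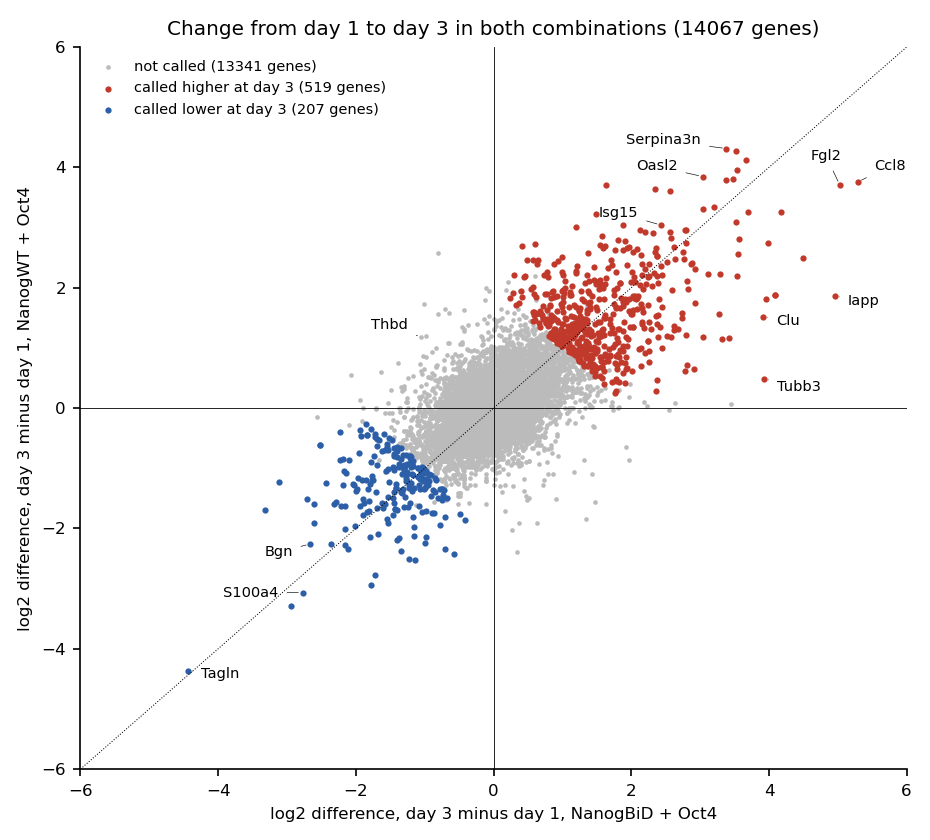
Each point is 1 of 14067 genes, at its log2 difference (day 3 minus day 1) in NanogBiD + Oct4 on the horizontal axis and in NanogWT + Oct4 on the vertical axis. Red points are the 519 genes called higher and blue points the 207 called lower in the fit over both combinations. The coloured points lie at the upper right and lower left, with the same sign in both combinations, as stated for all 519 and all 207.

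The interferon-stimulated genes were the list with the largest share of called members among the 39 lists described. Of 28 genes listed, 27 were tested and 22 (81.5%) were called higher, none lower, with a median difference of 1.58 against -0.01 for all genes. Of the 5 others, 4 passed the adjusted p without reaching 2-fold, and Ifit2, an antiviral protein that binds foreign RNA, did not pass (log2 difference 0.14 ± 0.31 SE, limma adjusted p = 0.827). The summed FPKM of the list was 239 and 134 in NanogBiD at day 1 and 533 and 598 at day 3, and 212 and 177 in NanogWT at day 1 and 839 and 978 at day 3. The days did not overlap in either combination. Within NanogBiD 12 of the members were called higher and within NanogWT 23, with median differences of 1.26 and 1.96, and no member was called in the test of the difference between the combinations over the 8 samples. When the spread was estimated over all 31 time-course samples, 3 members were called for a larger change in NanogWT, Ifit3b (2.21 against 0.29 in NanogBiD, limma adjusted p = 0.00456), Ifit3 (2.39 against 0.64, 0.0288) and Ifi44 (3.01 against 1.19, 0.0458). Ifit3b was at 0.819 and 0.894 FPKM in NanogBiD at day 1 and 0.938 and 1.66 at day 3, and in NanogWT at 1.62 and 1.22 at day 1 and 10.3 and 10.0 at day 3. The count of 22 stayed between 20 and 24 when any 1 sample was left out.

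The promoters of the 3 called members with the largest differences that have a promoter entry are printed because the data turn on them moving together. They are the 250 bases before the transcription start in RefSeq on GRCm38.p6, read 5′ to 3′ on the strand of the gene, for Isg15 chr4:156200819-156201068 (minus strand), Ifit1 chr19:34640639-34640888 (plus strand) and Oasl2 chr5:114896684-114896933 (plus strand). Capitals mark every match, on either strand, to GAAANNGAA, the core of the interferon-stimulated response element, a motif chosen after the values were seen.
Isg15: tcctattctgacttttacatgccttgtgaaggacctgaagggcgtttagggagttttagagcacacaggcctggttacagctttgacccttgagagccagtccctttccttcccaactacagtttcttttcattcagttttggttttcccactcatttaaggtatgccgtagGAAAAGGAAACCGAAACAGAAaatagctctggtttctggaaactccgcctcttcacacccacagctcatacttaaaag
Ifit1: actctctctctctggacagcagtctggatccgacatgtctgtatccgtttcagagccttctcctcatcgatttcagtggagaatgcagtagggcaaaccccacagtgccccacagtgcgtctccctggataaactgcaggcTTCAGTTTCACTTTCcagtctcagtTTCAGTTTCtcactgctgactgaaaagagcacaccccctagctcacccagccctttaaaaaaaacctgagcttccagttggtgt
Oasl2: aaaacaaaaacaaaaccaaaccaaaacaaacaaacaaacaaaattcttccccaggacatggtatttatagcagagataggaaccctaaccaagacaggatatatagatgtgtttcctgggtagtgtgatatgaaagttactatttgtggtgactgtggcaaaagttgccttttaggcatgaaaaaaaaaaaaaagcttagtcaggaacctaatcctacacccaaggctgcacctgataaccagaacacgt
Isg15 held 3 overlapping cores that begin 78, 72 and 66 bases before the start, and Ifit1 held 3 cores on the opposite strand that begin 109, 103 and 84 bases before it. Oasl2 held none in this window, and its RefSeq start was not the start of a transcript of the gene in GENCODE. The core was present in 10 of the 16 called members with an entry (62.5%) and in 1934 of all 27025 promoters of the same length (7.16%). Of the 7 motifs searched by rule on both strands, TATAAA was present in 4 of the 16 (25%) against 13% of all promoters and CCAAT in 5 (31.2%) against 34.5%. TTTGAA was present in 2 (12.5% against 16.3%) and GGGCGG in 3 (18.8% against 32.9%). TTTCGCGC, TCACCCCAC and TGACGTCA were in none of the 16 and in 0.255%, 0.466% and 1.62% of all promoters.

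Among the antiviral effectors, Oasl2, an oligoadenylate synthetase-like protein (chr5:114896926-114912245 on mm10), was at 1.76 and 0.549 FPKM in NanogBiD at day 1 and 11.6 and 21.9 at day 3, and in NanogWT at 1.8 and 0.956 at day 1 and 31 and 34.5 at day 3. Every day 3 sample was above every day 1 sample, and the rise was 3.44 ± 0.27 (SE, log2; limma adjusted p = 9.36e-05). Isg15, the ubiquitin-like modifier (chr4:156199424-156200818), went from 13.4 and 3.49 to 43.7 and 41.4 FPKM in NanogBiD and from 11.3 and 10.7 to 79.5 and 119.7 in NanogWT (log2 difference 2.74 ± 0.32, limma adjusted p = 0.000637). Day 1 replicate 2 of NanogBiD was the lowest of the day 1 samples, and the days did not overlap. Ifit1, which binds viral RNA (chr19:34640889-34650009), was at 8.32 and 3.72 FPKM in NanogBiD at day 1 and 13.2 and 40.8 at day 3, and in NanogWT at 6.73 and 5.29 at day 1 and 59.8 and 53 at day 3 (log2 difference 2.46 ± 0.37, limma adjusted p = 0.00244). The NanogBiD samples of day 3 lay further apart than the lower of them lay from day 1. In RefSeq Ifit1 overlaps a paralog, so that its reads may be shared. Bst2, which tethers virus particles at the cell surface, was the most abundant of those named, with 52.7 to 106 FPKM at day 1 and 192 to 348 at day 3 over both combinations (log2 difference 1.84 ± 0.25, limma adjusted p = 0.00127). Oas1a, Rtp4 and Gbp3 rose by 2.32, 2.15 and 1.85 on the log2 scale, and Zbp1, a sensor of unusual nucleic acid structures, by 2.36 from no more than 0.405 FPKM at day 1.

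The factors of the pathway rose as well. Irf7, the interferon-induced transcription factor, was at 8.13 and 3.32 FPKM in NanogBiD at day 1 and 18.4 and 22.5 at day 3, and in NanogWT at 6.75 and 4.05 at day 1 and 34.3 and 41.8 at day 3, a mean 5.25-fold higher at day 3 (limma adjusted p = 0.000888). Stat2 rose by 1.46 ± 0.19 (limma adjusted p = 0.00101), while its partner Irf9 passed the adjusted p but not the fold limit (0.78 ± 0.15, limma adjusted p = 0.00721). Usp18, which removes Isg15 from proteins and damps the interferon receptor, rose by 2.16 ± 0.38 (limma adjusted p = 0.0052). Of 21 interferon genes in the table, 20 (the alpha, beta, epsilon, gamma, kappa and lambda genes) were listed at 0 in all 8 samples, and the remaining 1, Ifnz, did not exceed 1.36 FPKM. Macrophages and endothelial cells, which can be present in embryonic fibroblast cultures, were followed by their markers, and their part in the rise was not tested. The summed FPKM of 12 macrophage markers was 11.3 to 43.3 at day 1 and 6.27 to 21.3 at day 3, with Ptprc, Csf1r and Adgre1 under 1 FPKM in all 8 samples and Aif1 at no more than 0.0632. Most of the sum came from the lysozyme gene Lyz2, with 5.43 to 24.8 FPKM at day 1 and 1.38 to 11.9 at day 3, and from Cd68, with 2.196 to 6.37 at day 1 and 1.30 to 3.63 at day 3. Over 11 endothelial markers the sum was 3.85 to 5.75 at day 1 and 4.56 to 9.90 at day 3, with Pecam1 and Cdh5 at or under 0.836 FPKM and Tie1 at 0. Tek lay at 0.475 to 2.21 FPKM at day 1 and 1.26 to 4.11 at day 3 (log2 difference 0.54, limma adjusted p = 0.038, under the fold limit), and Kdr at 0.513 to 1.13 and 0.713 to 2.16.

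Antigen presentation by MHC class I moved with them. Of 13 listed genes 12 were tested, 8 (66.7%) were called higher and none lower, and all 12 passed the adjusted p upward, with a median of 1.10. Psmb8, the catalytic subunit that marks the immunoproteasome (chr17:34198195-34201454), was at 1.5 and 0.703 FPKM in NanogBiD at day 1 and 13 and 10.6 at day 3, and in NanogWT at 1.05 and 0.64 at day 1 and 9.66 and 12 at day 3 (log2 difference 2.65 ± 0.16, limma adjusted p = 2.7e-05). H2-K1, a classical class I heavy chain (chr17:33996012-34000619), went from 13.1 and 10.3 to 50.5 and 57.6 FPKM in NanogBiD and from 12.7 and 12.3 to 54.5 and 54.7 in NanogWT (log2 difference 2.08 ± 0.11, limma adjusted p = 1.39e-05). For both genes the samples of the 2 days did not overlap, and the difference was of similar size in the 2 combinations (2.62 and 2.68 for Psmb8, 2.12 and 2.04 for H2-K1). H2-Q4 and H2-D1 rose by 2.34 and 1.20, and since the class I genes are near-identical copies the split of reads between them is uncertain. B2m, the light chain shared by all of them, ranged over 455 to 722 FPKM at day 1 and 912 to 1338 at day 3 (log2 difference 0.92 ± 0.18, limma adjusted p = 0.00868), which was under the fold limit.

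**Figure D2:**
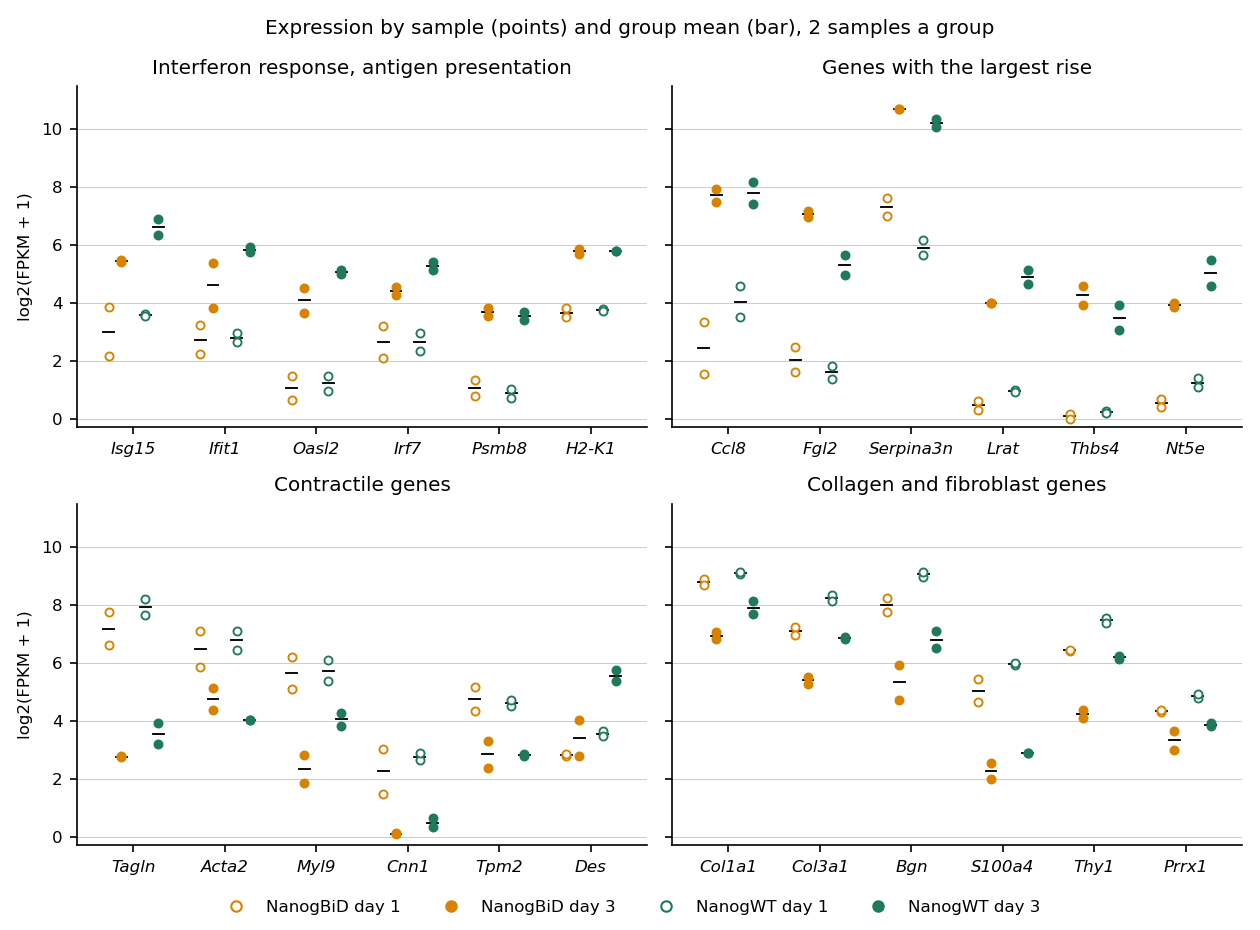
Expression on the log2(FPKM + 1) scale of 24 genes in each of the 8 samples, in 4 panels of 6 genes. Open circles are day 1, filled circles day 3, orange NanogBiD, green NanogWT, and the bar is the mean of 2 samples. In the interferon panel and that of the largest rises the filled circles lie above the open ones in each combination, and in those of contractile and collagen genes lower. Des is the exception, higher at day 3 in NanogWT and overlapping in NanogBiD.

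The contractile genes of smooth muscle, which cultured fibroblasts express as stress fibre components, were the list with the largest share called lower. Of 14 genes listed 11 were tested, 7 (63.6%) were called lower and 1 (9.09%) higher, with a median of -1.78. Their summed FPKM was 533 and 851 in NanogBiD at day 1 and 350 and 231 at day 3, and 736 and 967 in NanogWT at day 1 and 350 and 384 at day 3. Tagln (transgelin, an actin-bundling protein, chr9:45929628-45936058) had the largest log2 fall of the called genes. It was at 96.7 and 217 FPKM in NanogBiD at day 1 and 5.82 and 5.66 at day 3, and in NanogWT at 203 and 293 at day 1 and 8.08 and 14.4 at day 3. The mean over 4 samples was 23.9-fold lower at day 3, and the log2 difference was -4.41 ± 0.26 (limma adjusted p = 2.07e-05). The adjoining Pcsk7, a proprotein convertase gene whose annotation overlaps Tagln, fell by 3.11 on the same scale, and the reads of the pair may not be separable. Acta2, smooth muscle actin (chr19:34240336-34255585), fell from 56.9 and 136 to 34.1 and 19.8 FPKM in NanogBiD and from 86.4 and 138 to 15.2 and 15.2 in NanogWT (log2 difference -2.24 ± 0.33, limma adjusted p = 0.00194). Day 1 replicates differed by over 1.5 times, with replicate 2 the higher in both combinations, and the day 3 samples lay below all of them. Myl9, the regulatory light chain of myosin, was at 33.6 to 72.1 FPKM at day 1 and 2.6 to 18.5 at day 3 over both combinations (log2 difference -2.51 ± 0.39, limma adjusted p = 0.00302). Cnn1 (calponin) was no higher than 0.569 FPKM at day 3 (-2.22 ± 0.29), while Tpm2 and Actg2 fell by 1.84 and 1.78. Cald1 (caldesmon) fell by 1.05, and its difference dropped under the 2-fold limit without NanogBiD day 3 replicate 1 (-0.87) or day 1 replicate 2 (-0.97).

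Des, the intermediate filament desmin, was the 1 contractile gene called higher. It was at 5.94 and 6.21 FPKM in NanogBiD at day 1 and 15.2 and 5.86 at day 3, which overlap, and in NanogWT at 11.6 and 10.1 at day 1 and 53.3 and 40.4 at day 3, which do not (log2 difference 1.29 ± 0.33, limma adjusted p = 0.0291). The call did not hold without NanogBiD day 3 replicate 1 or without any 1 of the 4 NanogWT samples, where the adjusted p reached 0.0896.

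Type I, III and XII collagen genes were among those called lower. Of 14 collagen genes tested, 4 were called lower (28.6%) and 1 higher (7.14%), with a median of -0.79, and 8 passed the adjusted p downward. Col1a1, a chain of type I collagen (chr11:94936224-94953042), went from 481 and 416 to 113 and 133 FPKM in NanogBiD and from 537 and 565 to 206 and 281 in NanogWT (log2 difference -1.53 ± 0.18, limma adjusted p = 0.000617). Col3a1, the type III chain, went from 149 and 124 to 44.8 and 37.8 FPKM in NanogBiD and from 328 and 279 to 118 and 112 in NanogWT (log2 difference -1.55 ± 0.13, limma adjusted p = 0.000121). Both were higher in NanogWT than in NanogBiD already at day 1, and the day 3 samples of NanogWT lay above those of NanogBiD. Col1a2 fell by 1.61 and Col12a1 by 2.09, and Col14a1 rose by 1.55 ± 0.34 (limma adjusted p = 0.0149) from at most 0.848 FPKM at day 1 to between 1.19 and 10.4 at day 3. Its rise was 0.64 in NanogBiD (1.25 and 1.19 FPKM at day 3) and 2.47 in NanogWT (10.4 and 6.87). The difference between the combinations did not pass over the 8 samples (limma adjusted p = 0.169) and passed in the fit over all time-course samples (0.00391). Of the 16 genes for collagen processing enzymes, 2 were called lower and none higher. Loxl1 and Loxl2 are collagen cross-linking oxidases. Loxl2 was at 58.1 to 99.2 FPKM at day 1 and 14.1 to 42.6 at day 3 (log2 difference -1.59 ± 0.23, limma adjusted p = 0.00189). Loxl1 fell by 1.11, a call lost without NanogBiD day 1 replicate 2 or day 3 replicate 2 (adjusted p up to 0.0526). Without NanogBiD day 1 replicate 1, 4 of the 16 were called.

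Small proteoglycans and matricellular proteins were, with type I collagen, among the called genes with the largest losses in FPKM. Thbs1, thrombospondin 1, was at 475 and 644 FPKM in NanogBiD at day 1 and 58.9 and 119 at day 3, and in NanogWT at 717 and 1076 at day 1 and 269.7 and 347 at day 3 (log2 difference -2.11 ± 0.31, limma adjusted p = 0.00194). Bgn, the collagen-binding proteoglycan biglycan, went from 216 and 299.9 to 25.3 and 60.6 FPKM in NanogBiD and from 505 and 569 to 89.8 and 138 in NanogWT (log2 difference -2.46 ± 0.27, limma adjusted p = 0.000416). In neither gene did the days overlap. Ogn (osteoglycin) fell by 2.36 and Dcn (decorin) by 1.29. The stromelysin gene Mmp3 fell by 1.89 ± 0.16 (log2, SE; limma adjusted p = 0.000119), among 3 called lower and 1 higher of 18 matrix proteases and inhibitors. Another gene called lower, the protease nexin gene Serpine2, missed 2-fold without NanogBiD day 3 replicate 1. The gene called higher, the macrophage metalloelastase gene Mmp12 (1.19), kept its call in the absence of NanogBiD day 3 replicate 1 or NanogWT day 3 replicate 1 and of no other sample (adjusted p up to 0.0978).

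Of 18 fibroblast surface and secreted markers, 6 were called lower (33.3%) and none higher, with a median of -0.57, and their summed FPKM was 8443 to 10597 at day 1 and 5107 to 6348 at day 3. S100a4, a calcium-binding protein of motile fibroblasts (chr3:90603770-90606045), was at 23.9 and 42.6 FPKM in NanogBiD at day 1 and 4.84 and 2.97 at day 3, and in NanogWT at 59.4 and 63.4 at day 1 and 6.46 and 6.44 at day 3 (log2 difference -2.92 ± 0.19, limma adjusted p = 3.51e-05). Thy1, the surface glycoprotein used to sort fibroblasts, went from 84.6 and 86.8 to 19.99 and 16.2 FPKM in NanogBiD and from 189 and 165 to 69.8 and 74.3 in NanogWT (log2 difference -1.74 ± 0.19, limma adjusted p = 0.000394). Vim, the vimentin filament gene, remained among the most abundant transcripts, at 7179.7 to 8743 FPKM at day 1 and 4064 to 4903 at day 3 (log2 difference -0.78 ± 0.17, limma adjusted p = 0.015), which was under the fold limit. Of the 18 markers, 9 passed the adjusted p downward and none upward. Not all fell, and Postn lay at 367 to 480 FPKM at day 1 and 499 to 730 at day 3. Pdgfra lay at 5.86 to 10.5 FPKM at day 1 and 9.47 to 12.0 at day 3. The days overlapped for Cdh11, Ddr2 and Lum. Of 15 mesenchymal transcription factors 1 was called lower, Prrx1, at 18.9 to 29.6 FPKM at day 1 and 6.9 to 14.1 at day 3 (log2 difference -1.01 ± 0.15, limma adjusted p = 0.00218). Its difference fell short of 2-fold, with -0.87 as the smallest, without NanogBiD day 3 replicate 1, NanogBiD day 1 replicate 2, NanogWT day 3 replicate 1 or NanogWT day 1 replicate 2.

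The 12 largest rises by the rule for named genes included secreted and membrane proteins of several families. Ccl8, a chemokine for monocytes and T cells (chr11:82115185-82116799), was at 9.05 and 1.91 FPKM in NanogBiD at day 1 and 246 and 180.0 at day 3, and in NanogWT at 22.9 and 10.5 at day 1 and 292 and 169.5 at day 3 (log2 difference 4.52 ± 0.46, limma adjusted p = 0.000309). Fgl2, a fibrinogen-like protein (chr5:21372673-21378386), went from 4.52 and 2.07 to 123 and 145 FPKM in NanogBiD and from 2.57 and 1.61 to 49.2 and 30.6 in NanogWT (log2 difference 4.37 ± 0.31, limma adjusted p = 4.95e-05). Both genes were near 0 in the MEF samples and at day 0, where neither passed 1.31 FPKM, so that the day 1 level already lay above these. Serpina3n, an acute-phase inhibitor of serine proteases (chr12:104406646-104414334), had the largest gain in FPKM of the called genes, from 198 and 128 to 1682 and 1659 FPKM in NanogBiD and from 71.5 and 49.1 to 1308 and 1095 in NanogWT (log2 difference 3.85 ± 0.23, limma adjusted p = 2.63e-05). It belongs to a cluster of close copies, among which reads may be shared. The thrombospondin gene Thbs4 rose by 3.72, the potassium channel gene Kcnj5 by 3.89, the nicotinic receptor gene Chrna7 by 3.65, the adenosine-producing ectoenzyme gene Nt5e by 3.58, the orphan receptor gene Gpr151 by 3.49 and the proton pump gene Atp6v0d2 by 3.48. All of these were below 2 FPKM in every day 1 sample and above 7 FPKM in every day 3 sample. Ccn3, a secreted matricellular protein, rose by 2.98 ± 0.42 (limma adjusted p = 0.00179), and H19, an imprinted long non-coding RNA, by 2.13 ± 0.20 (limma adjusted p = 0.000194), from 68.3 to 106 to 312 to 535 FPKM. In MEF sample 1 H19 was the most abundant gene, at 5080.5 FPKM, far above its level at day 3.

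A run of 4 neighbouring genes on chr16 (88750744 to 88778546 on mm10, in a region of keratin-associated protein genes) was called higher. They were Krtap13, 2310034C09Rik, 2310057N15Rik and Gm5965, of which 2310034C09Rik fell under the rule for named genes and the others were added after their values were seen. 2310034C09Rik was at 7.74 and 3.71 FPKM in NanogBiD at day 1 and 91.2 and 57.5 at day 3, and in NanogWT at 4.21 and 3.04 at day 1 and 105 and 72.5 at day 3 (log2 difference 3.89 ± 0.26, limma adjusted p = 3.76e-05). It was listed at 0 in both MEF samples, in all 4 day 0 samples and in the mouse embryonic stem (mES) cell sample. The other members of the run rose by 2.74, 2.99 and 3.28, and since such genes are short and alike their reads may be shared.

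The 12 largest falls held more than contractile and matrix genes. Mme, the surface peptidase neprilysin, fell by 2.26 and Cryab, a small heat shock protein, by 2.23. Of the inflammatory chemokine and adhesion genes, 2 of 14 tested were called higher (Ccl8 and Icam1) and 3 lower (Sele, Vcam1 and Cxcl1), with a median of -0.15. In contrast to Ccl8, Sele (E-selectin) fell from 115 and 62.5 to 8.58 and 9.23 FPKM in NanogBiD and from 302 and 144 to 114 and 69 in NanogWT (log2 difference -2.17 ± 0.41, limma adjusted p = 0.0073), and Vcam1, another adhesion molecule for leukocytes, fell by 1.13 ± 0.16 (limma adjusted p = 0.00157). The Icam1 call was lost without NanogBiD day 1 replicate 2 or NanogWT day 1 replicate 2 (log2 difference down to 0.97), and the Cxcl1 call without NanogBiD day 3 replicate 2 or any 1 of the 4 NanogWT samples (adjusted p up to 0.0695).

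Among signalling pathways, the LIF and Stat3 and the retinoid lists had the most genes called higher, 5 each. Of 14 LIF and Stat3 genes tested, 5 were called higher (35.7%) and none lower, with a median of 0.57. Socs3, the feedback inhibitor of the pathway, was at 8.21 and 5.14 FPKM in NanogBiD at day 1 and 42 and 21.1 at day 3, and in NanogWT at 7.17 and 4.92 at day 1 and 24.9 and 22.4 at day 3 (log2 difference 1.93 ± 0.22, limma adjusted p = 0.000623). The LIF receptor gene Lifr rose by 1.94 ± 0.17 and Bcl3, a nuclear partner of NF-kappaB, by 1.96 ± 0.20 (limma adjusted p = 0.000122 and 0.000311). Socs1, which restrains both this pathway and the interferon pathway, rose by 1.20 ± 0.24 (limma adjusted p = 0.00973). The fifth was Tfcp2l1, described with the pluripotency factors.

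Of 10 retinoid genes tested, 5 were called higher (50%) and 1 lower (10%), with a median of 1.04. Aldh1a3, which makes retinoic acid, went from 3.26 and 1.55 to 28.7 and 26.7 FPKM in NanogBiD and from 4.37 and 1.63 to 15.6 and 17.8 in NanogWT (log2 difference 2.68 ± 0.27, limma adjusted p = 0.000323). Rarb, a retinoic acid receptor and itself a target of retinoic acid, rose by 1.16 ± 0.17 (limma adjusted p = 0.00194), and Crabp1, which binds retinoic acid in the cytosol, fell by 1.25 ± 0.27 (limma adjusted p = 0.0141). The retinal reductase gene Dhrs3 and the retinoic acid synthesis gene Aldh1a2 were called higher with calls that rested on single samples. That of Dhrs3 was lost without NanogBiD day 3 replicate 1 (0.94), and that of Aldh1a2 without NanogBiD day 1 replicate 1, day 1 replicate 2 or day 3 replicate 2 (adjusted p up to 0.0563). The list had 3 genes called higher without NanogBiD day 1 replicate 1, day 1 replicate 2 or day 3 replicate 1. Lrat, which stores retinol as ester and was not on this list, was below 1 FPKM in every day 1 sample and at 14.8 to 34.3 FPKM at day 3 (log2 difference 3.75 ± 0.16, limma adjusted p = 7.6e-06).

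TGF-beta targets went both ways, with 4 of 13 called lower, 1 higher and a median of -0.64. Tgfbi, a secreted adhesion protein, rose from 10.7 to 21.7 FPKM at day 1 to 58.5 to 172 at day 3 (log2 difference 2.62 ± 0.24, limma adjusted p = 0.000158). The lower calls included the matricellular gene Ccn2, the integrin gene Itgb5 and the TGF-beta-binding gene Ltbp2. The 4 lower calls rested on single samples, with 1 left without NanogBiD day 1 replicate 1 or day 3 replicate 2 and 2 left without NanogBiD day 1 replicate 2. Among YAP and TEAD targets 3 of 11 were called lower, Ccn2, Crim1 and the tissue factor gene F3. The call of F3 was lost without NanogWT day 3 replicate 1 (-0.98), that of Crim1 without NanogBiD day 3 replicate 1 or day 1 replicate 2 (-0.87 at the least), and that of Ccn2 without NanogBiD day 1 replicate 1, day 1 replicate 2 or day 3 replicate 2 or NanogWT day 1 replicate 2 (adjusted p up to 0.0637). Among AP-1 and immediate early genes 1 of 15 was called lower, the AP-1 subunit gene Fosl1, at 13.6 to 20.8 FPKM at day 1 and 2.05 to 6.11 at day 3 (log2 difference -1.96 ± 0.17, limma adjusted p = 0.000121). Of 10 BMP targets, 2 were called higher, the transcriptional regulator genes Hey1 (1.25 ± 0.24, limma adjusted p = 0.0072) and Id3, whose call was lost without any 1 of 6 samples, all but NanogBiD day 3 replicate 2 and NanogWT day 1 replicate 2 (adjusted p up to 0.0905). Of 6 Wnt targets tested, 2 were called higher (Axin2 and Tcf7) and the cyclin gene Ccnd1 lower. The Tcf7 call was lost without NanogBiD day 3 replicate 1 (0.89) and the Axin2 call without that sample or NanogBiD day 1 replicate 2 (0.91 at the least). The Ccnd1 call was kept only without NanogWT day 1 replicate 1, NanogBiD day 3 replicate 2 or NanogWT day 3 replicate 2. None of 13 FGF feedback genes was called.

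Cell division genes showed a smaller shift. Of 26 mitosis genes, 13 passed the adjusted p downward with a median of -0.45, and 1, Kif23, was called lower (lost without NanogBiD day 3 replicate 2, -0.96), and the summed FPKM was 351 to 518 at day 1 and 242 to 361 at day 3. Bub1, a checkpoint kinase, was at 6.57 to 10.9 FPKM at day 1 and 2.8 to 4.31 at day 3 (log2 difference -0.90 ± 0.14, limma adjusted p = 0.00308). Of 28 DNA replication genes none was called and 3 passed the adjusted p downward, with a median of -0.28. Of 19 p53 targets and cell cycle inhibitors none was called, 5 passed downward and 1 upward. Hox genes, which keep positional identity, had a median of -0.37 over 28 tested, of which 10 passed the adjusted p downward and 1, Hoxc5, was called lower (-1.37 ± 0.20, limma adjusted p = 0.002).

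**Figure D3:**
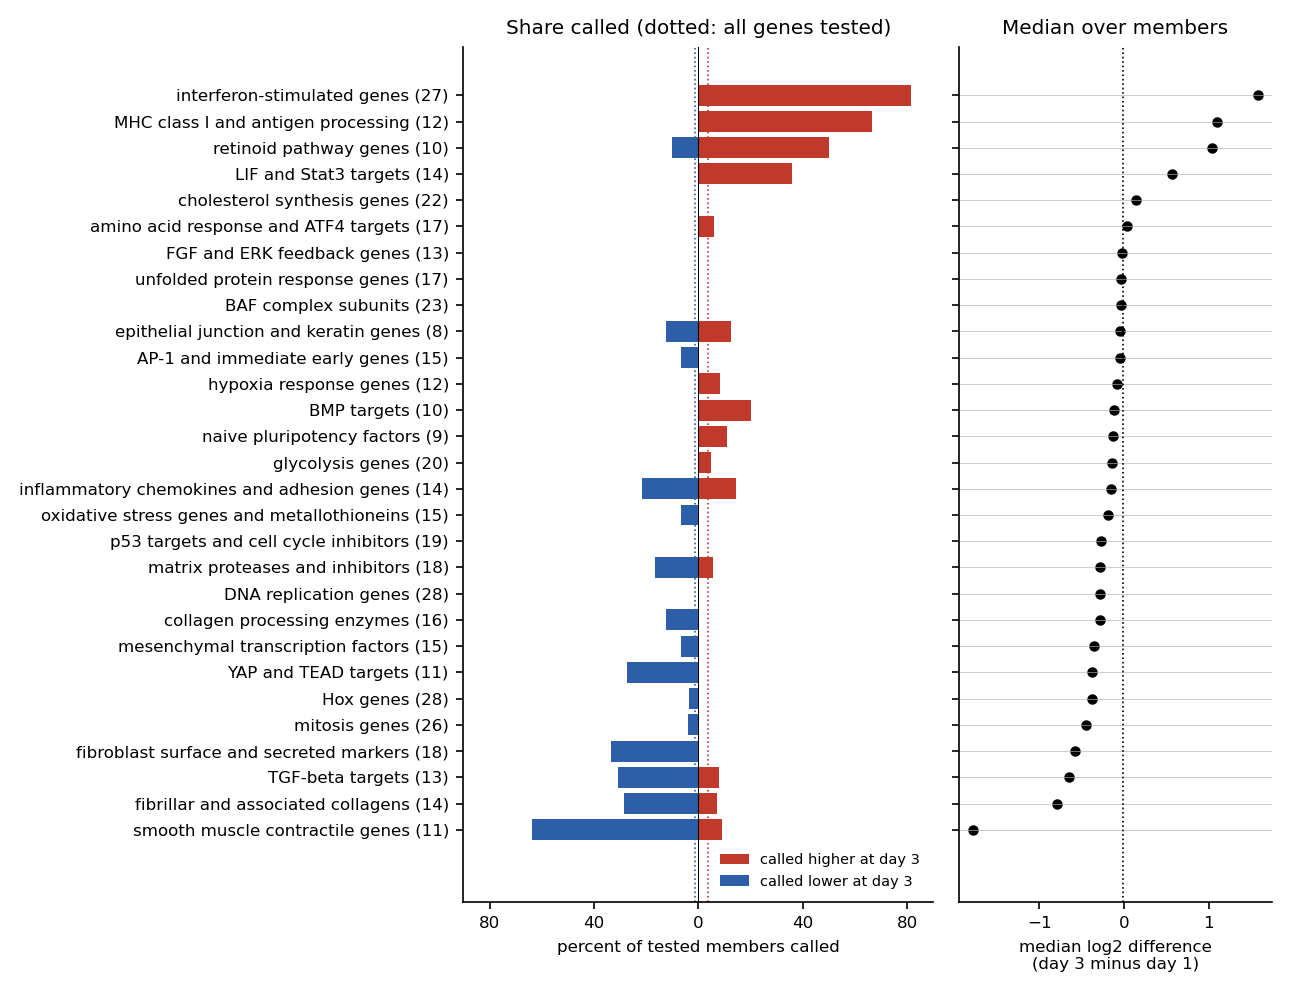
For each of the gene lists with at least 8 members tested, with the number of members tested in brackets, the bars give the percentage of tested members called higher (red, to the right) and called lower (blue, to the left), with the shares over all genes tested (3.69% and 1.47%) as dotted lines, and the points give the median log2 difference. Interferon-stimulated genes (81.5%) stand at the top and contractile genes (63.6% lower) at the bottom, while BAF subunits, DNA replication and unfolded protein response genes have no called member.

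Pluripotency genes were for the most part at low level at day 3. Of 9 naive pluripotency factors tested, 1 was called higher, and of 16 pluripotency effectors 13 did not pass the filter on low values and none of the other 3 was called in the fit over both combinations. Of these, Tdgf1, a co-receptor for Nodal, was called higher within NanogBiD, with 0.142 and 0 FPKM at day 1 and 7.42 and 4.22 at day 3, against 0 and 0 and then 0.127 and 0 in NanogWT. The difference between the combinations did not pass over the 8 samples (limma adjusted p = 0.1) and passed in the fit over all time-course samples (0.00914). Tfcp2l1, a naive pluripotency factor and LIF target (chr1:118627923-118685168), was at 0.166 and 0.216 FPKM in NanogBiD at day 1 and 7.17 and 7.74 at day 3, and in NanogWT at 0.406 and 0.435 at day 1 and 5.38 and 3.96 at day 3 (log2 difference 2.41 ± 0.19, limma adjusted p = 9.36e-05). Every day 3 sample lay above every day 1 sample, against 107 FPKM in the mES sample. Sall4, a pluripotency factor, was listed at 0 in all 4 day 1 samples and was at 1.49 and 1.27 FPKM in NanogBiD and 0.0503 and 0.136 in NanogWT at day 3, and did not pass the test (limma adjusted p = 0.0789). Dab2, an endocytic adaptor followed in the study as a somatic gene, was higher at day 3 without reaching the fold limit (0.59 ± 0.15, limma adjusted p = 0.0307).

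In several groups few or no genes were called. None of 23 tested BAF complex subunits was called or passed the adjusted p, with a median of -0.03, and Smarca4, which encodes BRG1, was at 32.2 to 44.4 FPKM at day 1 and 32.6 to 36.4 at day 3 (log2 difference -0.14 ± 0.12). No member was called among 22 cholesterol synthesis genes, 17 unfolded protein response genes or 6 DNA methylation and Tet enzymes. Glycolysis (1 of 20), hypoxia (1 of 12) and amino acid response genes (1 of 17) each had a single gene called higher. These were the glucose transporter gene Slc2a3 (1.51 ± 0.28, limma adjusted p = 0.00704), the glycolytic regulator gene Pfkfb3 and the cystine transporter gene Slc7a11 (1.86 ± 0.14, limma adjusted p = 6.3e-05). The Pfkfb3 call was lost without NanogBiD day 1 replicate 1, day 1 replicate 2 or day 3 replicate 2 (0.85 at the least). Of 15 oxidative stress genes, the quinone reductase gene Nqo1 was called lower (-1.34 ± 0.16, limma adjusted p = 0.000695). Epithelial genes, which come on in many reprogramming protocols, had 8 of 22 members tested, with Itga6, an integrin of the basement membrane, called higher (1.31 ± 0.15, limma adjusted p = 0.000624) and the keratin gene Krt19 lower (-1.51 ± 0.18, limma adjusted p = 0.000617).

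Markers of other cell types were for the most part low, apart from neural ones. Of the 12 macrophage, 11 endothelial and 8 adipocyte markers, 5, 3 and 4 were tested and none was called, and of 11 skeletal and cardiac muscle markers 10 stayed under 1 FPKM in all 8 samples. Of 10 chondrocyte and osteoblast markers 4 were tested and 2 called lower, the osteoblast factor gene Runx2 and the cartilage collagen gene Col2a1, the latter at 2.37 to 5.13 FPKM at day 1 and 0.418 to 0.887 at day 3 (log2 difference -1.39 ± 0.20, limma adjusted p = 0.0019). Of 14 trophoblast and primitive endoderm markers 4 were tested and 1, Gata3, was called lower. The Runx2 call was lost without NanogBiD day 1 replicate 1, NanogBiD day 3 replicate 1, NanogWT day 3 replicate 1 or NanogWT day 1 replicate 2 (-0.89 at the least), and the Gata3 call without NanogBiD day 1 replicate 2 or day 3 replicate 2 (-0.92). Of 11 neural markers 6 were tested and 2 called higher, Sox1 and Tubb3. The list summed to 152 and 133 FPKM in NanogBiD at day 1 and 569 and 420 at day 3, and in NanogWT to 305 and 199 at day 1 and 260 and 325 at day 3. Sox1, a factor of early neural cells, ranged over 0.767 to 3.07 FPKM at day 1 and 8.93 to 15 at day 3 (log2 difference 2.23 ± 0.27, limma adjusted p = 0.00082), while Sox10, Dcx and Gfap stayed under 1 FPKM in all 8 samples. The neurofilament genes Nefm and Nefl reached 168 and 76.9 FPKM, the microtubule-associated gene Map2 lay between 9.47 and 19.8 FPKM and Stmn2 between 22.7 and 204 in the 8 samples, and none of these was called. Tubb3, a neuronal tubulin, was at 19.5 and 9.45 FPKM in NanogBiD at day 1 and 296 and 167 at day 3, but in NanogWT at 22.1 and 13.8 at day 1 and 20.2 and 30.7 at day 3, where the days overlap. Its shared call (limma adjusted p = 0.0414) was lost without any 1 of 6 samples, all but NanogWT day 1 replicate 1 and NanogWT day 3 replicate 1, with adjusted p up to 0.109.

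In the test of whether the change differed between the combinations (interaction), 1 gene of 14067 was called (0.00711%), and 1311 passed an unadjusted p under 0.05. The gene called was Mir7089, a microRNA gene that lies inside Cdc25a, listed at 0 in both NanogBiD samples of day 1 and both NanogWT samples of day 3 and at 1.82 and 1.71 FPKM in NanogBiD at day 3 and 1.98 and 1.92 in NanogWT at day 1. An unadjusted p under 0.05 was held by 161 of the 519 genes called higher (31%) and 53 of the 207 called lower (25.6%). Over all genes the share was 9.32%. In simulated data, differences were placed only in genes above a set mean level, so the rates found do not cover lower genes. The test of the difference found 27.5% of differences of 1.5 on the log2 scale and 86.5% of those of 2. The test of the shared change found 96.5% and 99.5%, so few calls here do not show equal changes. Thbd (thrombomodulin, a somatic gene followed in the study) was at 14.2 and 12.4 FPKM in NanogBiD at day 1 and 5.21 and 6.66 at day 3, and in NanogWT at 19.6 and 24.3 at day 1 and 48.1 and 53.3 at day 3. The log2 difference was -1.05 in the former and 1.18 in the latter, and the difference between these was -2.22 ± 0.25 (limma adjusted p = 0.0747). Stmn2, a neuronal microtubule regulator, went from 81.7 and 93.4 to 204 and 193 FPKM in NanogBiD and from 56.7 and 50.5 to 22.7 and 27.8 in NanogWT (difference 2.24 ± 0.23, limma adjusted p = 0.0715). Clu, a secreted chaperone, and Iapp, a peptide hormone, were called higher in the shared fit with larger changes in NanogBiD (3.92 against 1.52 and 4.96 against 1.86), and the differences did not pass in the 8-sample fit (limma adjusted p = 0.1 for Clu and 0.1 for Iapp). Of these, Stmn2, Clu and Iapp were chosen after their values were seen. When the spread was estimated over all 31 time-course samples, 122 genes were called for the difference, 51 with the larger value in NanogBiD and 71 in NanogWT. There the differences of Thbd, Stmn2, Clu and Iapp passed (limma adjusted p = 0.000781, 0.000207, 0.00106 and 0.00133) and that of Mir7089 did not (0.144). Other genes described above with their shared change were also called there. Tubb3 (3.93 in NanogBiD against 0.49 in NanogWT), Ccn3 (4.08 against 1.88), Gpr151 (4.49 against 2.49) and Aldh1a2 (2.77 against 0.62) rose more in NanogBiD. Ccn2 (-2.52 against -0.61) and Ltbp2 (-1.85 against -0.27) fell more in NanogBiD, and Col14a1 rose more in NanogWT. Without NanogBiD day 3 replicate 2 the 8-sample fit called 20, and without any 1 of 6 other samples (NanogBiD day 1 replicate 1 or 2, NanogWT day 1 replicate 1 or 2, NanogWT day 3 replicate 1 or 2) it called 0.

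Most of the genes called at day 3 were also called, in the same direction, between other days. The span from day 0 to day 7 encloses the interval in the same time courses, so that a change that lasted is met again. It also holds changes made before day 1 and after day 3. Day 0 and day 7, with 2 samples each per combination, share no sample with day 1 and day 3. Between them, in a fit of these 8 samples alone, 1773 of 14794 genes tested were called higher (12%) and 886 lower (5.99%), which became 1270 and 1221 under quantile normalization. Of the 519 genes called higher at day 3, 479 (92.3%) were called higher at day 7 against day 0, where 11.1% of all genes tested were, and 1 was called lower. These made up 27% of the genes called higher there. Of the 207 called lower, 143 (69.1%) were called lower there, where 5.7% of all genes tested were, and 6 higher. These 143 made up 16.1% of the genes called lower there. Relative to day 1, the median of the 519 genes called higher was -0.37 at day 0, 1.47 at day 3, 1.79 at day 5 and 1.58 at day 7 in NanogBiD, and -0.39, 1.44, 1.81 and 2.05 in NanogWT. The genes called lower stood at 0.37, -1.40, -1.63 and -1.59 in NanogBiD and at 0.22, -1.26, -1.46 and -1.57 in NanogWT. These medians used the day 1 and day 3 samples that chose the genes, and the median over all genes stayed within 0.15 of day 1.

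**Figure D4:**
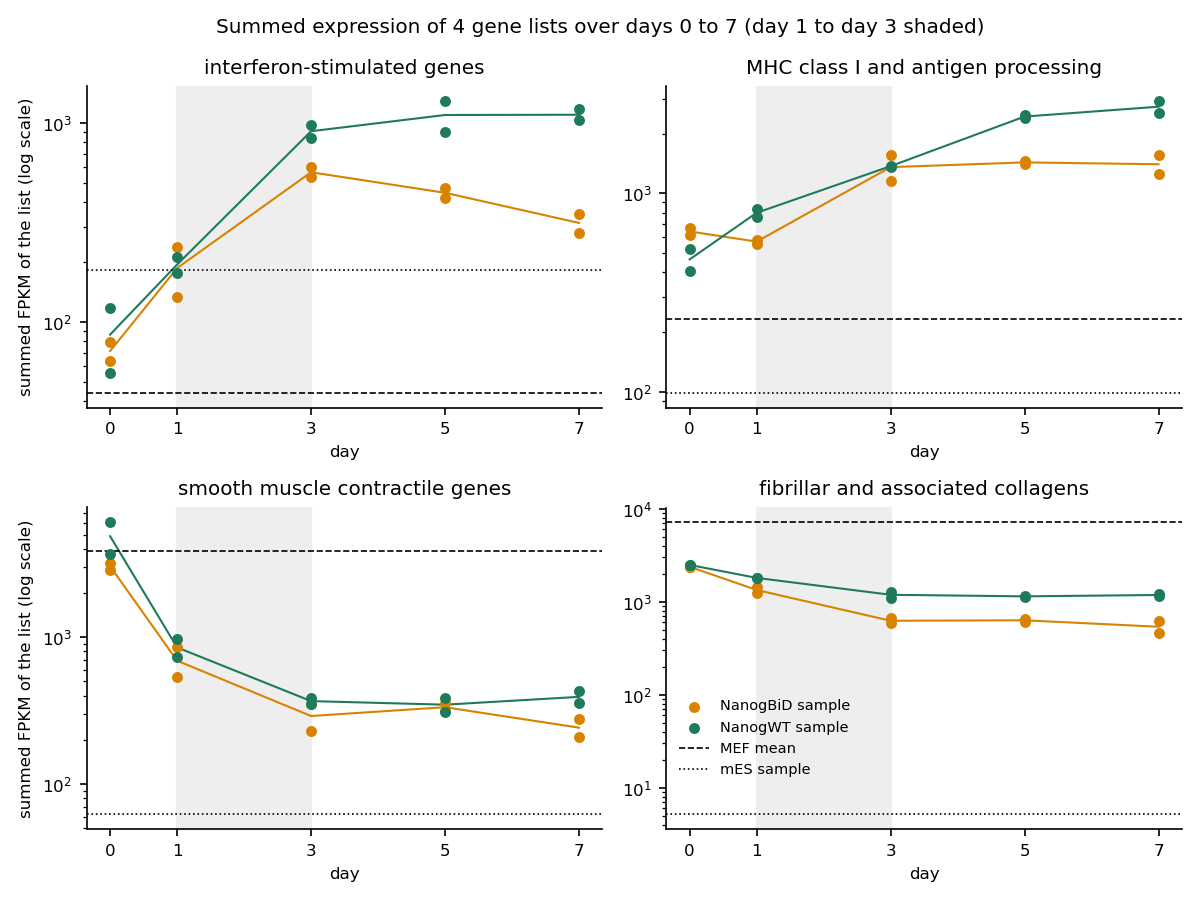
Summed FPKM of 4 gene lists (log axis) against day, from day 0 to day 7, for NanogBiD samples (orange) and NanogWT samples (green), with a line through the mean of 2 samples a day, the MEF mean as a dashed line, the mES sample as a dotted line and day 1 to day 3 shaded. The interferon list lies at 134 to 239 at day 1 and 533 to 978 at day 3. From day 3 on the NanogWT samples lie above those of NanogBiD. The contractile list lies at 2855 to 6075 at day 0 and 231 to 384 at day 3.

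The levels outside the interval are given as a description. The interferon list summed to 473 and 419 FPKM at day 5 and 351 and 279 at day 7 in NanogBiD, below its day 3 level, and in NanogWT to 898 and 1295 at day 5 and 1030 and 1169 at day 7. The contractile list summed to 2855 to 6075 FPKM at day 0 and 533 to 967 at day 1. Tagln was at 449 to 1685 FPKM at day 0, and from day 3 to day 7 it lay between 4.62 and 14.4 FPKM in both combinations. H2-K1 was at 115 to 126 FPKM in NanogBiD and 256 to 266 in NanogWT at day 7.

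The called genes were also set against MEF and mES cells, the start and end points of reprogramming. Of the 207 called lower, 137 (66.2%) were lower by 2-fold or more in the mES sample relative to MEF, against 17.4% of all genes tested. Of the 519 called higher, 107 (20.6%) were higher by 2-fold or more in mES relative to MEF, which is the share of all genes (20.5%), and 86 (16.6%) were lower by that much, against 17.4% of all genes. Under 1 FPKM in the mES sample were 301 of the 519 (58%), against 18.7% of all genes, and under 1 FPKM in both MEF samples were 287 (55.3%), against 11%. The mES sample had no replicate, and neither share was tested.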

How the data were processed

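Gene-level FPKM were deposited by the authors, who trimmed RNA-seq reads with Trim Galore 0.6.4, aligned them to mm10 with HISAT2 2.2.1 and quantified them with StringTie 2.2.1. The gene annotation and strand setting are not given in the sources used here, so overlapping genes and close paralogs may share reads, and the files give FPKM without read counts. Samples were grouped by their labels, and the gene table held 37108 genes in 34 libraries, of which 8 were compared. Genes at 1 FPKM or more in at least 2 of the 8 were kept (14067) and fitted as log2(FPKM + 1) in limma 3.58.1 (R 4.3.3, lmFit and eBayes with trend) with combination as a block. Values on this scale understate the change of low genes. A fit of the 4 group means gave the change within each combination and its difference, and day 7 against day 0 was fitted alike. Called means an adjusted p (Benjamini-Hochberg, all genes) under 0.05 and at least 2-fold. The fits were tested on simulated data.

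Named genes were the 12 largest called differences in each direction with no overlap between days, the 5 largest changes in FPKM, up to 4 called members of each of 39 lists (or 2 of the highest level where fewer than 2 were called), the vector genes, genes with the smallest interaction p and 4 genes the study follows. Some genes are not reported here. The interval, the lists and the rules were chosen with earlier results of these data known. Older symbols duplicated 344 tested rows, of which 12 were called, and each list counts a gene once. The difference at day 3 correlated across genes with GC content at rho 0.079 and with transcript length at 0.159 (13499 of the 14067 genes, 96%). Alternatives were the pseudocount, the filter, TPM, quantile normalization, replicate blocks, a common nuclear total, removal of GC and length trends, a fit over all 31 time-course samples, and leaving out each sample.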

Additional observations from a re-analysis of the deposited data

Results flagged for a closer look

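Mir7089, a microRNA gene inside Cdc25a, was the 1 gene for which the test of the difference between the combinations passed (change from day 1 to day 3 in NanogBiD minus that in NanogWT, 3.03 ± 0.24 SE on the log2 scale, limma adjusted p = 0.0175). Its values were 0 or between 1.71 and 1.98 FPKM, both replicates alike in each of the 4 groups. In the fit over all time-course samples the adjusted p was 0.144.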

How the results depend on the processing

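Of 98 counts of calls recomputed under other settings, 84 stayed within 1.5 times the reported count. With a pseudocount of 0.1 the shared counts were 801 higher and 339 lower, and 233 of those lower were lower at day 7. With no filter on low values, 159 genes were lower within NanogBiD, 109 within NanogWT, and 3 differed between the combinations. With a common nuclear total 816 were higher, of which 728 were higher at day 7. With GC and length trends removed 0 differed between the combinations, and in the fit over all time-course samples 122 did, against 1 as reported (1311 at an unadjusted p under 0.05). With no fold limit 1250 and 920 were called in the shared fit, and 430 within NanogBiD and 313 within NanogWT were lower. Leaving out 1 sample gave 231 to 588 higher and 100 to 375 lower within NanogBiD, 191 to 556 and 39 to 203 within NanogWT, and 0 to 20 for the difference, with the samples named in the report, while the shared counts stayed at 457 to 550 and 175 to 241. For day 7 against day 0, quantile normalization gave 1270 higher and 1221 lower and GC and length correction 1189 and 1239, in place of 1773 and 886. Same-numbered samples of day 1 and day 3 deviated together (r = 0.228 in NanogBiD and 0.143 in NanogWT). Across combinations the correlation was 0.148 at day 1 and -0.07 at day 3, which does not bear on pairing within a combination. The labels do not say whether the numbers pair samples, and the reported fit did not pair them. With a replicate block, the shared counts were 521 and 209 (509 and 210 with the block within combination), those within NanogBiD 530 and 287, those within NanogWT 533 and 209, and 1 gene differed between the combinations. Of 105 called genes checked one by one, 80 kept their call whichever sample was left out and 88 under every other setting, and none reversed.

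The depth of the files in reads is unknown, and each group holds 2 samples.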
